A study of Homo sapiens with 8 samples.

Results

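The genes for 7 insulin-like growth factor (IGF) binding proteins, IGFBP1 to IGFBP7, and the genes of the IGF receptors, IGF1R and IGF2R, were followed in RNA sequencing libraries of the established human cell line U2OS, derived from an osteosarcoma. The 9 genes were chosen by name, as rows of a table of 22504 genes, and the family was selected on its FPKM values with results from the same 8 libraries already known. FPKM counts fragments scaled to transcript length and to the depth of the library. Every level and difference below is therefore a description. Adjusted p-values place a gene among all genes tested and are not independent evidence.

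The cells overexpressed the actin mutant G13R or, as the control, expressed GFP, and each kind was sampled with serum stimulation and in normal growth. The 4 groups, G13R serum, G13R normal, GFP serum and GFP normal, had 2 libraries each of poly(A)-selected RNA. The labels give neither the actin gene, the duration of serum, a starvation step, the number of clones nor whether the 2 libraries of a group came from different cultures. Each p-value below is therefore set against a spread between libraries that may be technical.

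IGF1 and IGF2 are secreted growth factors that act through the tyrosine kinase IGF1R, while IGF2R, also the cation-independent mannose 6-phosphate receptor, takes up IGF2 for breakdown in lysosomes. The secreted binding proteins hold the ligands in the medium or matrix and limit or prolong their access to IGF1R. Osteoblasts secrete several of them, IGFBP5 among these, and proteases can cut the binding proteins and set the ligand free.

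Promoters of 7 of the 9 genes were found in the RefSeq table (GRCh38.p14), and 3 are shown. IGFBP1 and IGFBP7 had no entry there, so their promoters were not searched for motifs. IGFBP5 and IGFBP6 were called higher after serum in GFP cells, and IGFBP2 holds the only match among the 7 genes to the CArG box, the site of SRF, a factor whose coactivator MRTF binds actin. Each sequence is the 250 bases before an annotated start, read 5′ to 3′ on the strand of the gene. They lie at chr2:216695550-216695799 (minus strand, IGFBP5), chr12:53097417-53097666 (plus strand, IGFBP6) and chr2:216632578-216632827 (plus strand, the most upstream of 3 listed IGFBP2 starts). Capitals mark GGAATG or its reverse complement, the TEAD motif, in IGFBP5 and IGFBP6, and the CArG box in IGFBP2.
IGFBP5: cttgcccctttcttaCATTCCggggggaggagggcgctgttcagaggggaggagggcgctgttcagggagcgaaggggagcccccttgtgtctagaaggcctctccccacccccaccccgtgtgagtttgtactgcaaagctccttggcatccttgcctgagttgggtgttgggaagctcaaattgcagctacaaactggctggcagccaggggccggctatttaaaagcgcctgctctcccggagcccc
IGFBP6: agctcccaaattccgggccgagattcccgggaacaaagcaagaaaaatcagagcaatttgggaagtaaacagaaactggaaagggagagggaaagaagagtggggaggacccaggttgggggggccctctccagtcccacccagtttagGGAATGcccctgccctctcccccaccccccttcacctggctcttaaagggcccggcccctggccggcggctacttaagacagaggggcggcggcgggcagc
IGFBP2: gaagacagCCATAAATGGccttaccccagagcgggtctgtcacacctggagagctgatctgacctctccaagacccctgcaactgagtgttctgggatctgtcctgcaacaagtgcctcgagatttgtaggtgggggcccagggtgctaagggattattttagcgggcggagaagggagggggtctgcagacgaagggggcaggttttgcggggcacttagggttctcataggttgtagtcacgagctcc

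Motifs were searched on both strands in these windows, with CAAAACA for the insulin response element, TGACTCA for AP-1, GGAATG for TEAD, GCGTGGGCG for EGR factors, TATAAA for the TATA box, CACGTG for the E-box, and the CArG box by name. The TEAD letters lay at positions -235 to -230 of IGFBP5 and -101 to -96 of IGFBP6, counted back from the base before the start, and 11.9% of 35116 promoter windows of the same length held them. The CArG box lay at -242 to -233 of the most upstream IGFBP2 start, and 1.16% of windows held one. The windows of the other listed IGFBP2 starts held no CArG box, and IGFBP2 stood at most at 0.186 FPKM. IGF2R held 3 copies of CACGTG, as did 0.0797% of windows, and IGFBP4 held TATAAA at -29 to -24, as did 10.7%. A match of letters is not a measured binding site.

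The libraries had 12065 to 12568 genes at 1 FPKM or more, with 12465 to 12568 after serum and 12065 to 12215 in normal growth. The part of this difference in the results was not tested. ACTB, the beta-actin gene, stood at 7949 to 11240 FPKM in G13R libraries and at 2543 to 2779 FPKM in GFP libraries. Of 8 osteoblast lineage markers, RUNX2, SPARC, COL1A1 and ALPL reached 1 FPKM in each library, while COL1A2, SP7 and IBSP stayed below it. The 4 leukocyte and 4 endothelial markers stayed below 1 FPKM in each library. Of 5 epithelial markers, EPCAM stood at 1.63 to 2.88 FPKM, CDH1 at 0.498 to 4.47 FPKM and KRT14 at 0 to 3.85 FPKM, and their sums were 3.42 to 4.44 FPKM in G13R serum, 4.52 to 7.67 FPKM in G13R normal, 5.71 to 8.11 FPKM in GFP serum and 4.84 to 7.77 FPKM in GFP normal libraries. The part of such cells or expression in the results was not tested. The GFP serum libraries differed most from each other, with 186 genes over 2-fold apart on the log2(FPKM + 1) scale, against 87 to 102 in the other groups.

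**Figure D1:**
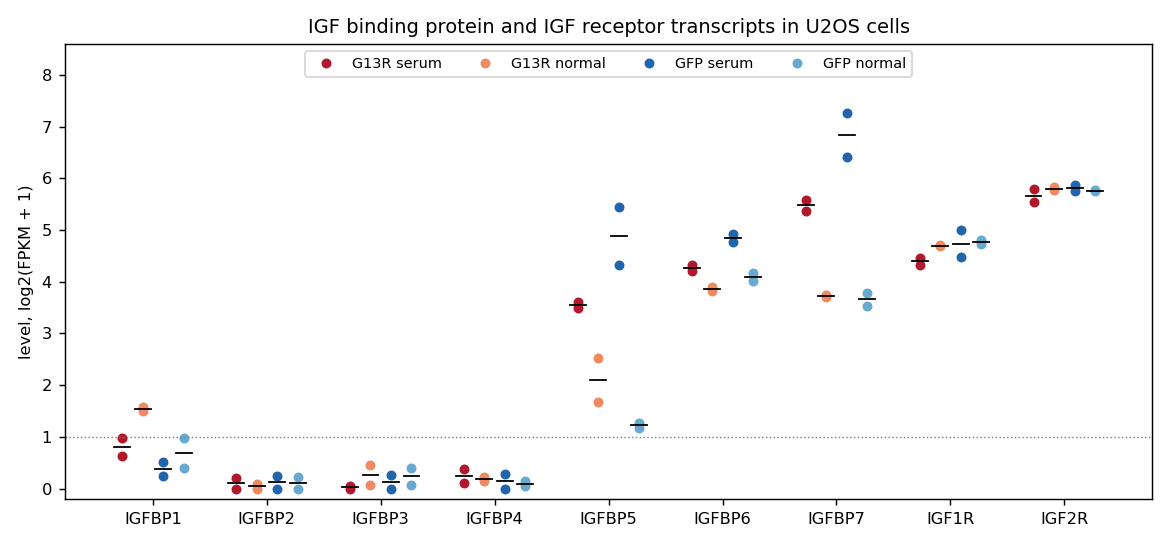
Level of each gene in each library, as log2(FPKM + 1), in G13R serum, G13R normal, GFP serum and GFP normal libraries. Points are libraries, black bars are group means (n = 2), and the dotted line is 1 FPKM; IGFBP5 and IGFBP7 spread most between groups, and IGF2R lies between 45.4 and 57.7 FPKM throughout.

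IGFBP7, the most abundant binding protein transcript after serum, encodes a secreted protein that binds IGFs more weakly than the other family members. It stood at 40.4 and 46.9 FPKM in G13R serum libraries, 12.4 and 12 FPKM in G13R normal libraries, 84.3 and 152 FPKM in GFP serum libraries, and 12.8 and 10.6 FPKM in GFP normal libraries (chromosome 4, 57896939 to 57976551, hg19). The serum libraries lay above all normal growth libraries, and the GFP serum libraries lay above the G13R serum libraries. In G13R cells it was 1.75 ± 0.22 higher on the log2(FPKM + 1) scale after serum (SE, limma adjusted p = 0.00141), and in GFP cells 3.18 ± 0.22 higher (adjusted p = 2.74e-05). They ranked 35 and 14 from the top among 12996 tested genes. The call in G13R cells was lost without the filter on low values (adjusted p = 0.065). The annotated span of IGFBP7 overlaps that of POLR2B by 396 bases, and POLR2B, which encodes a subunit of RNA polymerase II, stood between 61.7 and 81.4 FPKM in the 8 libraries. The use of strand in counting is not stated, and the part of POLR2B reads in the IGFBP7 values was not tested.

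IGFBP5, which encodes a binding protein that also attaches to bone matrix, had the widest span of group means of the family on the log2(FPKM + 1) scale. It stood at 10.3 and 11.1 FPKM in G13R serum libraries, 2.199 and 4.73 FPKM in G13R normal libraries, 19.0 and 42.9 FPKM in GFP serum libraries, and 1.42 and 1.26 FPKM in GFP normal libraries (chromosome 2, 217536828 to 217560248, hg19). Each group lay apart from each of the others. In GFP cells it was 3.66 ± 0.35 higher on the log2(FPKM + 1) scale after serum (limma adjusted p = 1.07e-04), which ranked 7 from the top. In G13R cells the difference was 1.45 ± 0.35 (adjusted p = 0.0233). That call was lost without the filter on low values (adjusted p = 0.200), without the intensity trend (0.0624), without G13R normal replicate 1 (0.156) and without G13R serum replicate 1 (0.105) or 2 (0.122).

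IGFBP6, whose protein prefers IGF2 over IGF1, had smaller differences and rose after serum in GFP cells. Its level was 19.2 and 17.4 FPKM in G13R serum libraries, 14.0 and 13.1 FPKM in G13R normal libraries, 26.4 and 29.6 FPKM in GFP serum libraries, and 15.1 and 16.96 FPKM in GFP normal libraries (chromosome 12, 53491220 to 53496129, hg19). The serum libraries lay above the normal growth libraries of the same cells. The log2 fold change was 0.40 ± 0.12 for G13R (limma adjusted p = 0.0548) and 0.77 ± 0.12 for GFP (adjusted p = 0.00148). The G13R value passed the threshold without GFP serum replicate 1 (adjusted p = 0.0398), without GFP serum replicate 2 (0.0402) and with a filter at 5 FPKM (0.0433).

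IGFBP1, which the liver makes under insulin and FOXO control, was low, with serum values that did not pass the test. It stood at 0.542 and 0.958 FPKM in G13R serum libraries, 1.84 and 1.99 FPKM in G13R normal libraries, 0.426 and 0.1796 FPKM in GFP serum libraries, and 0.978 and 0.323 FPKM in GFP normal libraries (chromosome 7, 45927956 to 45933267, hg19). The G13R normal libraries alone exceeded 1 FPKM, and through them the gene passed the filter on low values, so its being highest there was a condition of its being tested. Its log2 fold change after serum was -0.75 ± 0.26 in G13R cells (limma adjusted p = 0.0912, and 0.0457 under quantile normalization) and -0.32 ± 0.26 in GFP cells (adjusted p = 0.388). Of the hepatocyte markers, ALB, APOA1 and TTR stayed below 1 FPKM in each library, and SERPINA1 stood at 26.9 to 44.6 FPKM.

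IGFBP2, IGFBP3 and IGFBP4 were at the floor of detection and did not pass the filter. IGFBP2, whose protein carries an integrin-binding sequence, was listed at 0 in 4 libraries and at most at 0.186 FPKM. IGFBP3, the main carrier of IGFs in blood, was listed at 0 in 2 libraries and at most at 0.372 FPKM. IGFBP4, which the protease PAPPA cuts, was listed at 0 in 1 library and at most at 0.296 FPKM. A listed 0 can be a failed estimate, but of 7167 genes with a median of 10 FPKM or more, only 3 were listed at 0 in any library. IGFBP2 (chromosome 2, 217497551 to 217529159) lies 7668 bases from IGFBP5 with no listed gene between, and IGFBP3 (chromosome 7, 45951951 to 45961473) lies 18683 bases from IGFBP1. In each neighbouring pair, 1 gene was measured above 1 FPKM in some libraries and the other in none.

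The receptors were expressed in all libraries and were not called in any comparison. IGF1R (chromosome 15, 99192200 to 99507759) stood at 19.0 and 21.1 FPKM in G13R serum libraries, 24.7 and 25.3 FPKM in G13R normal libraries, 21.3 and 30.9 FPKM in GFP serum libraries, and 25.5 and 26.9 FPKM in GFP normal libraries. Its G13R serum libraries were the lowest of the 8, with a log2 fold change against G13R normal of -0.31 ± 0.16 (limma adjusted p = 0.22), while the GFP serum libraries lay on both sides of GFP normal (-0.03 ± 0.16, adjusted p = 0.913). IGF2R (chromosome 6, 160390131 to 160534539) stood at 45.4 and 54.4 FPKM in G13R serum libraries, 54.1 and 55.7 FPKM in G13R normal libraries, 53.3 and 57.7 FPKM in GFP serum libraries, and 53.5 and 52.8 FPKM in GFP normal libraries. Its largest log2 difference in the 4 comparisons of groups was -0.16 ± 0.10, between G13R and GFP cells after serum (adjusted p = 0.422). IGF2R levels exceeded IGF1R levels 1.86-fold to 2.58-fold within a library.

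**Figure D2:**
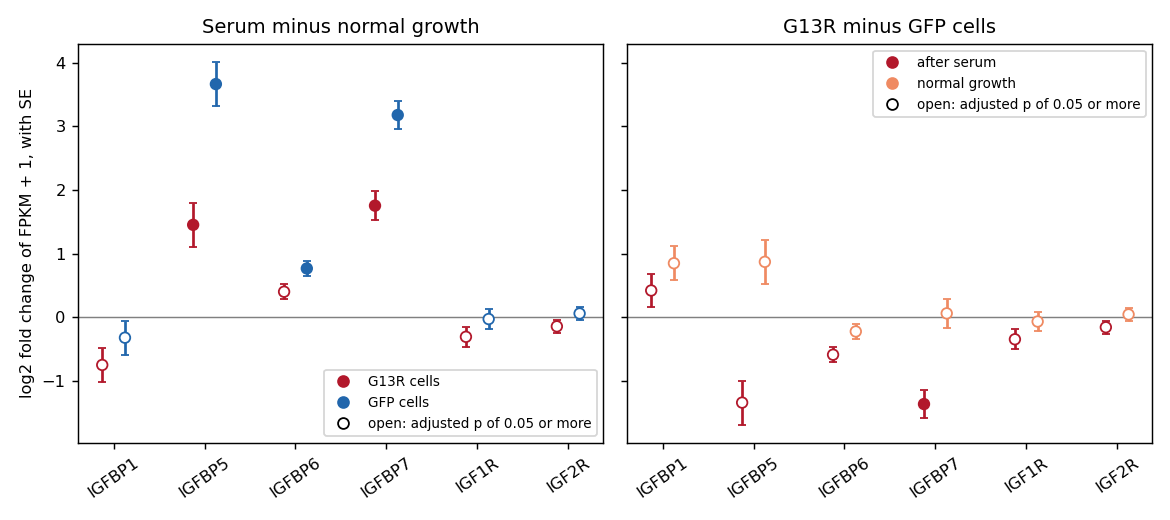
Log2 fold changes on the log2(FPKM + 1) scale of the 6 genes that passed the filter, with SE from limma. The left panel gives serum minus normal growth in G13R and in GFP cells, the right panel G13R minus GFP cells after serum and in normal growth; filled points had an adjusted p under 0.05, and IGFBP5 and IGFBP7 rose in both kinds of cell.

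Genes had to reach 1 FPKM in 2 libraries or more to be tested, and 6 of the 9 did. Serum stimulation was compared with normal growth to show the response of each kind of cell. In G13R cells 2 of the 6, IGFBP5 and IGFBP7, were called higher (limma, adjusted p under 0.05), where 8.26% of all tested genes were. None was called lower, where 4.62% of all genes were, and 1 of the 6, IGFBP1, was lower at an unadjusted p under 0.05. In GFP cells 3, namely IGFBP5, IGFBP6 and IGFBP7, were called higher, where 14.9% of all genes were. None was called lower in GFP cells, where 15.7% of all genes were, and none at an unadjusted p under 0.05. The median log2 fold change of the 6 was 0.13 in G13R cells and 0.41 in GFP cells, beside 0.04 and 0.01 over all genes tested. The family was chosen with these contrasts known, and nothing is read from its share of calls.

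The binding protein transcripts were also added up, since FPKM values are per length. The 7 genes summed to 70.9 and 76.5 FPKM in G13R serum libraries, 30.7 and 32.5 FPKM in G13R normal libraries, 130 and 226 FPKM in GFP serum libraries, and 30.6 and 29.5 FPKM in GFP normal libraries. In normal growth the sums of the 2 kinds of cell differed by little, and after serum those of GFP cells were higher, with the wider gap from GFP serum replicate 2. IGFBP6 made up 22.8 to 27.0% of the sum in G13R serum, 40.5 to 45.7% in G13R normal, 13.1 to 20.3% in GFP serum and 49.3 to 57.5% in GFP normal libraries. IGFBP7 made up 57.0 to 61.3% in G13R serum, 36.9 to 40.5% in G13R normal, 64.7 to 67.6% in GFP serum and 36.0 to 41.8% in GFP normal libraries. The leading binding protein transcript was thus IGFBP7 in each serum library and IGFBP6 in each normal growth library. In bulk RNA, more cells that express a gene and more transcript per cell cannot be told apart.

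**Figure D3:**
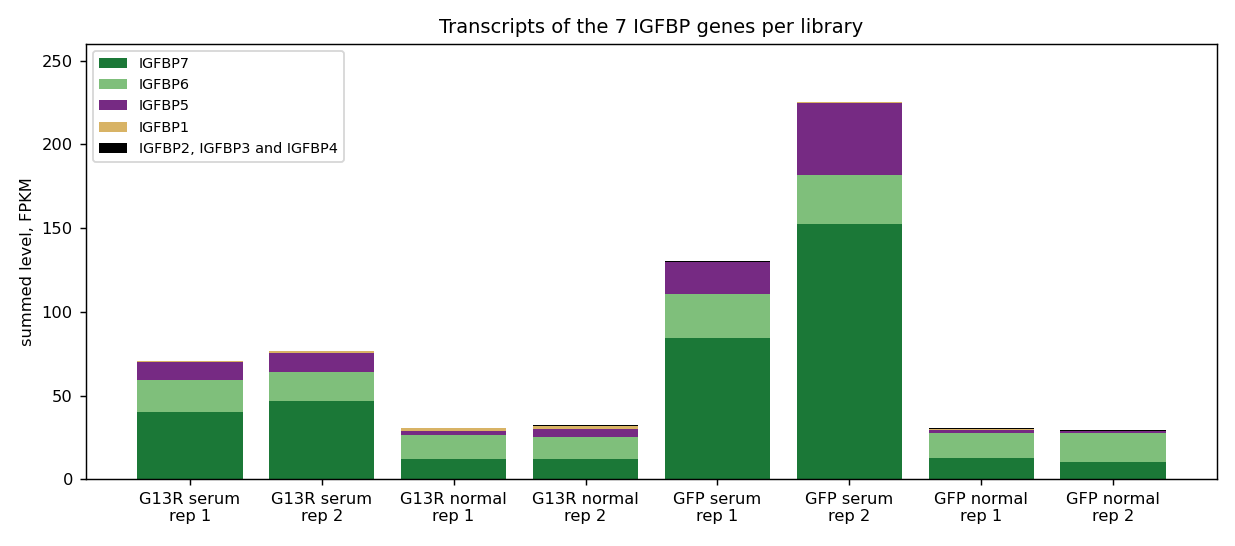
Summed FPKM of the IGFBP genes in each library, G13R serum, G13R normal, GFP serum and GFP normal, stacked by gene (bars start at 0). The serum libraries reach 70.9 to 226 FPKM and the normal growth libraries 29.5 to 32.5 FPKM, with IGFBP7 the largest part after serum.

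The order of levels also differed between groups. In G13R and GFP normal libraries alike it ran IGF2R, IGF1R, IGFBP6, IGFBP7, IGFBP5 and IGFBP1, each neighbour apart from the next in its 2 libraries. After serum in G13R cells it ran IGF2R, IGFBP7, IGF1R, IGFBP6, IGFBP5 and IGFBP1, where IGF2R overlapped IGFBP7 and IGF1R overlapped IGFBP6. After serum in GFP cells IGFBP7 came first, above IGF2R, and IGFBP5, IGFBP6 and IGF1R followed with overlapping libraries. IGFBP2, IGFBP3 and IGFBP4 held the last 3 places in each group. Neighbours among them overlapped, except that IGFBP4 lay above IGFBP2 in G13R normal libraries, and in GFP cells the range of IGFBP1 met theirs.

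G13R cells were set against GFP cells after serum, where IGFBP7 was called lower (log2 fold change -1.36 ± 0.22, limma adjusted p = 0.0397), 1 of the 6 genes where 0.823% of all tested genes were called in either direction. IGFBP5 (-1.34 ± 0.35, adjusted p = 0.0843) and IGFBP6 (-0.59 ± 0.12, adjusted p = 0.0564) had values below 0 without passing. The libraries of the 2 kinds of cell did not overlap in any of these 3 genes. Nor did they in IGF1R (ratio of group means, G13R over GFP, 0.768) and IGFBP1 (2.48, the other direction). How many of all genes lacked overlap was not computed, so no weight is put on it. The IGFBP7 call was lost with no filter on low values (adjusted p = 0.246), with only the compared libraries (0.195) and with no intensity trend (0.127). It was also lost without G13R normal replicate 1 or 2 (adjusted p = 0.077 and 0.0786), G13R serum replicate 1 or 2 (0.349 and 0.164), GFP normal replicate 1 or 2 (0.0755 and 0.0734) and GFP serum replicate 2 (0.088, log2 fold change -0.94). Without GFP serum replicate 1, IGFBP7, IGFBP5 (adjusted p = 0.0048), IGFBP6 (0.0169) and IGF1R (0.0145) were all called lower, while calls over all genes went up to 1620 of 12881, against 107 of 12996 with all libraries. In GFP serum, replicate 2 exceeded replicate 1 by 1.81-fold for IGFBP7 and 2.26-fold for IGFBP5, against a median of 1.03-fold over genes at 1 FPKM or more in both, and 97.2% and 99.0% of those genes had smaller ratios.

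In normal growth, G13R cells differed from GFP cells in none of the 6 genes by limma's adjusted p, where 0.0462% of all genes were called, and in 2, IGFBP1 and IGFBP5, at an unadjusted p under 0.05, as in 1968 of the 12996 genes. IGFBP1 was tested only through its G13R normal libraries, so its value here is a description. The log2 fold change was 0.85 ± 0.26 for IGFBP1 (adjusted p = 0.191) and 0.87 ± 0.35 for IGFBP5 (adjusted p = 0.269). The libraries of the 2 kinds of cell did not overlap in either gene. Nor did they in IGFBP6, IGF1R and IGF2R, whose ratios of group means, G13R over GFP, were 0.848, 0.954 and 1.03. IGFBP7 had overlapping libraries (0.06 ± 0.22, adjusted p = 0.931). The share of all genes without overlap was not computed, and nothing is read from the lack of overlap. These values share the G13R normal and GFP normal libraries with the serum responses above.

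Whether the serum responses differed was tested as the G13R response minus the GFP response. None of the 6 genes was called by limma, where 0% of all tested genes were, and 2 had an unadjusted p under 0.05, as did 1533 of the 12996 genes. IGFBP5 had a difference of -2.21 ± 0.49 and IGFBP7 of -1.42 ± 0.32 on the log2(FPKM + 1) scale, each with adjusted p = 0.261. The value was below 0 for all 6 genes, -0.43 ± 0.37 for IGFBP1, -0.37 ± 0.17 for IGFBP6, -0.28 ± 0.22 for IGF1R and -0.20 ± 0.15 for IGF2R. The median over all genes tested was 0.04, and the share of them below 0 was not computed. The 6 values rest on the same libraries, so nothing is read from their shared sign. Without GFP serum replicate 1 the differences of IGFBP5 (-2.78, adjusted p = 0.00685) and IGFBP7 (-1.85, adjusted p = 0.00318) passed, as did 486 of the 12881 genes then tested. Without GFP serum replicate 2 neither did.

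The profiles most like those of the family were found as the 3 smallest root mean square distances between centred log2(FPKM + 1) values over the 8 libraries, for genes whose group means spanned at least 1. Nearest to IGFBP7 were VWA5B2 (distance 0.116, Pearson's r = 0.996), BMP4, a bone morphogenetic protein gene (0.172, r = 0.992), and SMOC1, which encodes a secreted calcium-binding matrix protein (0.204, r = 0.989). Nearest to IGFBP5 were NR4A1 (0.251, r = 0.986), SMOC1 (0.292, r = 0.980) and NR4A2 (0.339, r = 0.975). NR4A1 and NR4A2 encode orphan nuclear receptors of the immediate-early class. NR4A1 stood at 47.4 and 70.6 FPKM in G13R serum libraries, 20.6 and 23.0 FPKM in G13R normal libraries, 101 and 245 FPKM in GFP serum libraries, and 12.99 and 14.5 FPKM in GFP normal libraries. SMOC1 was among the 3 nearest genes of both. IGFBP1 was nearest to OPN5 (0.135, r = 0.961), CGB (0.181, r = 0.930) and RAD9A (0.194, r = 0.952), of which OPN5 and CGB were below 2 FPKM in each library. The group means of IGFBP6, IGF1R and IGF2R spanned 0.99, 0.37 and 0.16, under the minimum. The correlations are descriptions over 8 libraries that share their groups.

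**Figure D4:**
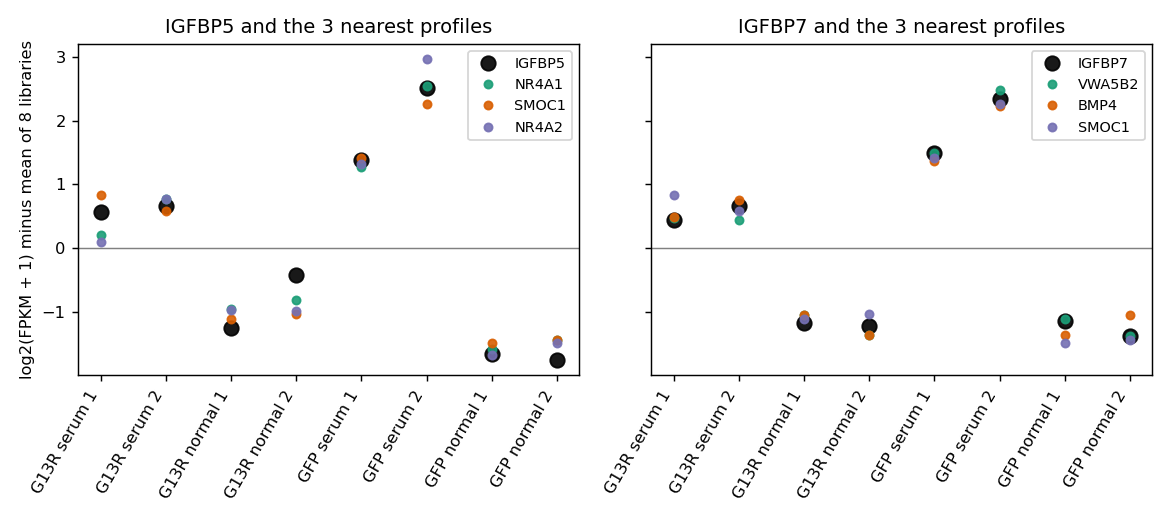
Log2(FPKM + 1) minus its mean over the 8 libraries, by library, for IGFBP5 (left) and IGFBP7 (right) with the 3 genes of nearest profile. Large black points are the binding protein gene; all genes shown are highest in GFP serum replicate 2, and IGFBP5 lies above its 3 neighbours in G13R normal replicate 2.

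Of 36 other genes of the IGF axis, 29 passed the filter. In G13R cells 2 were called higher and 1 lower after serum (limma, adjusted p under 0.05), where 8.26% and 4.62% of all tested genes were. In GFP cells 7 were called higher and 3 lower, where 14.9% and 15.7% of all genes were. Nothing particular to the list is read from these counts. The 7 include INSR and HTRA1, which passed the filter through serum libraries alone. Their median log2 fold change was 0.09 in G13R cells and 0.10 in GFP cells, beside 0.04 and 0.01 over all genes. The counts of calls fell in G13R cells without any 1 G13R library and rose without either GFP serum library. In GFP cells they fell without GFP normal replicate 2 or GFP serum replicate 2. Calls over all genes moved the same way in these fits, so nothing particular to the list is read from the changes. Between G13R and GFP cells after serum 1 was called by limma, where 0.823% of all genes were. None was called between them in normal growth, where 0.0462% of all genes were. At an unadjusted p under 0.05 there were 5, beside 1968 of all 12996 genes. None was called for the difference of the responses, where 0% of all genes were, with 7 at an unadjusted p under 0.05, beside 1533 of all genes.

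Among the ligands, IGF2 stood at 5.47 and 4.67 FPKM in G13R serum libraries, 2.29 and 2.88 FPKM in G13R normal libraries, 3.90 and 5.10 FPKM in GFP serum libraries, and 2.23 and 1.96 FPKM in GFP normal libraries. It rose in G13R cells (log2 fold change 0.76 ± 0.19, limma adjusted p = 0.0298) and in GFP cells (0.82 ± 0.19, adjusted p = 0.0102). The G13R call was lost without any 1 of the 4 G13R libraries, with quantile normalization (limma adjusted p = 0.0584) and with no filter on low values (0.105). The GFP call was lost without GFP normal replicate 2 or GFP serum replicate 2, and with no filter (limma adjusted p = 0.052). The listed span of IGF2 overlaps INS-IGF2 and IGF2-AS, and the part of their reads in the IGF2 values was not tested. IGF1 stayed at or below 0.124 FPKM in each library. INSR, the insulin receptor gene, stood at 3.09 and 1.46 FPKM in G13R serum libraries, 0.972 and 0.993 FPKM in G13R normal libraries, 1.65 and 2.06 FPKM in GFP serum libraries, and 0.710 and 0.457 FPKM in GFP normal libraries. Only its 4 serum libraries reached 1 FPKM, so its being high after serum was a condition of its being tested, and its values are a description. They were 0.68 ± 0.26 in G13R cells (limma adjusted p = 0.119) and 0.85 ± 0.26 in GFP cells (adjusted p = 0.0343). The GFP call was lost in 7 of 15 alternatives, among them having no filter (0.127) and leaving out GFP serum replicate 2 (0.143), GFP normal replicate 1 (0.0792) or 2 (0.149), and G13R normal replicate 1 (0.05) or 2 (0.0503).

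Among the proteases and their inhibitors, ADAM12, which can cut IGFBP3 and IGFBP5, fell in both kinds of cell. It stood at 5.45 and 4.97 FPKM in G13R serum libraries, 11.5 and 10.1 FPKM in G13R normal libraries, 3.65 and 3.85 FPKM in GFP serum libraries, and 14.5 and 10.5 FPKM in GFP normal libraries. Its log2 fold change was -0.92 ± 0.17 in G13R cells (limma adjusted p = 0.00884) and -1.49 ± 0.17 in GFP cells (adjusted p = 3.33e-04). The G13R call was lost without G13R normal replicate 1 or G13R serum replicate 2, and with no filter on low values (limma adjusted p = 0.0711). HTRA1, a secreted serine protease gene, reached 1 FPKM in 3 libraries, all of them after serum, and was tested through these alone. It had 0.45 ± 0.25 in G13R cells and 0.77 ± 0.25 in GFP cells (adjusted p = 0.0409), a call lost in 10 of 15 alternatives, including having no filter (0.101) and leaving out any 1 of the GFP libraries (0.0555 to 0.16) or of the G13R normal libraries (0.0581 each). PAPPA stood at 0.503 to 0.936 FPKM and was not tested. PAPPA2 had -0.61 ± 0.24 in G13R cells and -0.21 ± 0.24 in GFP cells, and STC2, an inhibitor of PAPPA, had -0.54 ± 0.28 and -0.61 ± 0.28, none of them called. STC1, another such inhibitor, stayed at or below 0.273 FPKM.

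At the cell surface, LRP1, an endocytic receptor that binds IGFBP3, rose in G13R cells (0.74 ± 0.18, limma adjusted p = 0.0239) and in GFP cells (1.20 ± 0.18, adjusted p = 0.00103). Its level was 20.1 and 23.0 FPKM in G13R serum libraries, 11.4 and 13.6 FPKM in G13R normal libraries, 28.7 and 40.8 FPKM in GFP serum libraries, and 12.9 and 15.9 FPKM in GFP normal libraries. The G13R call of LRP1 was lost without any 1 of the 4 G13R libraries, without the intensity trend (limma adjusted p = 0.0614) and with no filter on low values (0.165). The adaptor gene IRS1, the PI3K subunit genes PIK3CA and PIK3CB, AKT1, AKT2 and MTOR were not called in either kind of cell, and IRS2 stayed at or below 0.033 FPKM.

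Of the 3 genes for proteins that bind IGF2 mRNA, IGF2BP2 and IGF2BP3 fell after serum in GFP cells, and none was called in G13R cells. IGF2BP1 had -0.24 ± 0.26 in G13R cells and -0.19 ± 0.26 in GFP cells. IGF2BP3 stood at 7.51 and 6.44 FPKM in G13R serum libraries, 4.29 and 5.69 FPKM in G13R normal libraries, 3.35 and 2.43 FPKM in GFP serum libraries, and 7.92 and 8.17 FPKM in GFP normal libraries. It fell in GFP cells after serum (-1.23 ± 0.19, limma adjusted p = 0.00125) and had 0.42 ± 0.19 in G13R cells (adjusted p = 0.166). After serum, 0.823% of all tested genes were called between G13R and GFP cells, in either direction. IGF2BP3 was the 1 gene of the list called there, higher in G13R (1.04 ± 0.19, limma adjusted p = 0.0449). That call was lost in 10 of 16 alternatives, with adjusted p up to 0.355, and leaving out any 1 library other than GFP serum replicate 1 ended it. IGF2BP2 fell in GFP cells (-0.60 ± 0.10, adjusted p = 0.00181), at 40.2 and 37.6 FPKM after serum and 62.6 and 56.6 FPKM in normal growth.

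**Figure D5:**
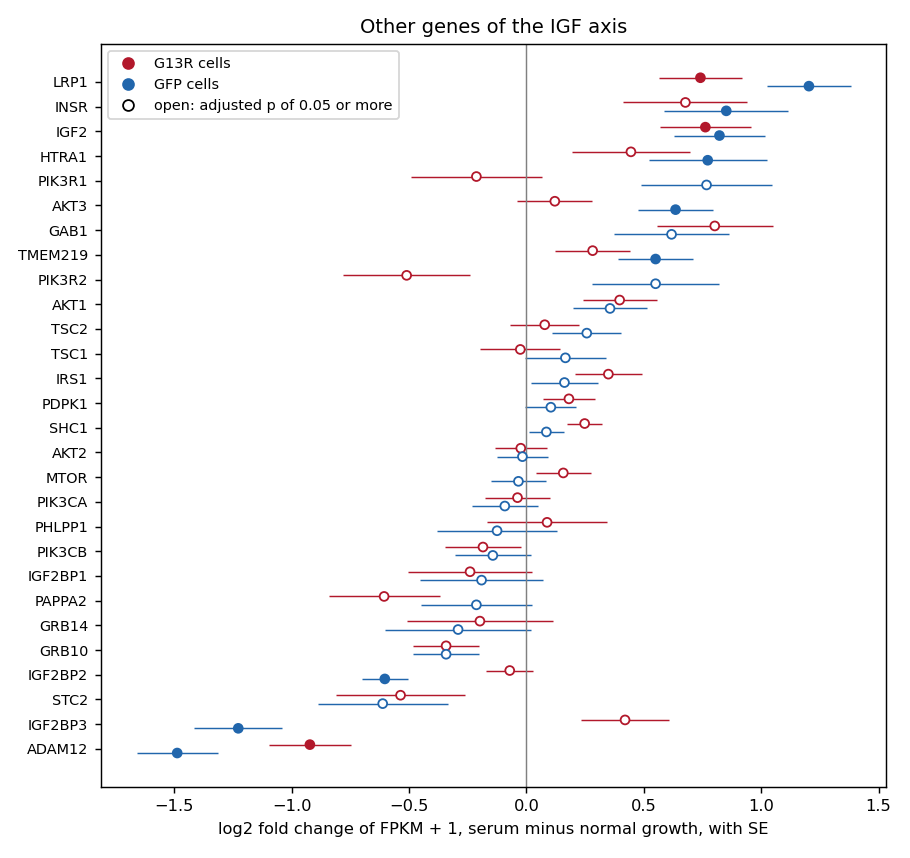
Log2 fold changes on the log2(FPKM + 1) scale, serum minus normal growth, of 28 of the 29 other IGF axis genes tested, in G13R cells and in GFP cells, with SE from limma. Filled points had an adjusted p under 0.05; LRP1 and IGF2 rose and ADAM12 fell in both kinds of cell, and IGF2BP3 lies on opposite sides of 0.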

How the data were processed

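The authors deposited FPKM values for each gene in 1 table. The submitters' processing notes name the tools TopHat2 2.0.13 and Cufflinks 2.2.1 and the builds hg19 and BDGP5, with no annotation. Column names gave the libraries, where C was taken to mean normal growth. Starts were raised by 1, since 77.4% of 159 olfactory receptor genes under 1000 bases had end minus start as a multiple of 3. FPKM keeps no counts: low values shared the commonest ratio to another library in only 6.83 to 15.5% of genes, so reads were not recovered and the depth is unknown.

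Values were analysed as log2(FPKM + 1) in limma 3.58.1 (R 4.3.3) with an intensity trend. All 8 libraries shared 1 spread estimate with 4 residual degrees of freedom, over the 12996 genes that reached 1 FPKM in 2 libraries or more. A call means an adjusted p (Benjamini-Hochberg, all genes) under 0.05, and fold changes understate those of low genes. The fit was tested on simulated data. The members, the 36 other genes and the motifs were chosen with earlier results of these data known. By rule, all members, the 3 nearest profiles, up to 3 called genes of the wider list per comparison, and its ligands, INSR, proteases and inhibitors were named. IGF2BP1, IGF2BP2 and the signalling genes that were not called were named after their values were seen. Another gene of the wider list is counted but not reported here. No 50-base window of a member's GENCODE v29 transcripts occurred in another member. Protein sequences were not analysed here.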

Additional observations from a re-analysis of the deposited data

Results flagged for a closer look

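The 45 genes of the family and the wider list were checked for serum libraries apart from normal growth libraries in opposite directions. Genes under the filter were counted as not apart, and 2 genes were found, IGF2BP3 and MTOR. The share over all genes was not computed, and nothing is read from this count. IGF2BP3 had both serum libraries above both normal growth libraries in G13R cells (limma adjusted p = 0.166, not called). In GFP cells they lay below (adjusted p = 0.00125). The difference of the responses, G13R minus GFP, was 1.65 ± 0.26 on the log2(FPKM + 1) scale. Its limma adjusted p was 0.259, and 0.00849 to 0.645 over the alternatives; the lowest came from leaving out GFP serum replicate 1. MTOR, which encodes a growth-controlling kinase, also had its libraries apart in opposite directions, with a difference of 0.19 ± 0.17 and adjusted p = 0.688 (0.616 to 0.921 over the alternatives). Neither difference passed the test.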

How the results depend on the processing

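The GFP serum calls of IGFBP5, IGFBP6 and IGFBP7 held in all 16 alternatives, and no called value of the family changed sign. Of the values that were not called, IGF1R after serum in GFP cells changed sign in 2 of 16 alternatives (up to 0.23, without GFP serum replicate 1), and in normal growth IGF1R changed sign in 2 (up to 0.03, quantile normalization) and IGFBP7 in 1 (-0.06, without GFP normal replicate 2). With no filter on low values, the family's calls were 0 for serum in G13R cells (2 as reported) and 0 after serum between G13R and GFP (1 as reported), and those of the other IGF axis genes were 0 (3), 4 for serum in GFP cells (10) and 0 after serum (1). Over all genes with no filter, 578 of 22504 were called for serum in G13R cells, 2282 for serum in GFP cells and 4 after serum. As reported these were 1675, 3985 and 107 of 12996. Without the intensity trend, calls were 1 for the family in G13R cells and 0 for both lists after serum, beside 1071 and 6 over all genes. With only the compared libraries, calls were 5 for the axis genes in G13R cells and 0 for both lists after serum, beside 2174 and 6 over all genes. A filter at 5 FPKM gave 2 family calls after serum. Leaving out 1 library gave 1 to 3 family calls in G13R cells, 0 to 5 axis calls in G13R cells and 6 to 13 in GFP cells. After serum it gave 0 to 4 for each list, and for the difference 0 to 2 family and 0 to 3 axis calls. Most upper ends came without GFP serum replicate 1, where the lone library left is assumed to vary like the other groups. The causes were not tested.

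With the replicate number as a block, axis calls in G13R cells were 5, and after serum the family had 3 and the axis genes 2. Over all 12996 genes, calls were then 1797 in G13R cells and 403 after serum, against 1675 and 107 as reported. Same-numbered libraries had deviations correlated at 0.017 to 0.121 between groups, and the samples were taken to share only a number. Unknown depth limits IGFBP1 to IGFBP4, at or below 1.99 FPKM.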
